A study of Mus musculus with 18 samples.

Results

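Fatty acid synthesis and desaturation were followed through 10 genes, Acly, Acss2, Acaca, Fasn, Scd1, Scd2, Fads1, Fads2, Elovl5 and Elovl6, chosen by name as the enzymes that make acetyl-CoA in the cytosol, build long-chain fatty acids from it, lengthen them and put double bonds into them. All 10 were found among the 56953 gene identifiers of the deposited tables, and all 10 were among the 16743 genes that had enough counts to be tested. The study profiled natural killer (NK) cells from mouse spleen, which are lymphocytes that kill infected and transformed cells, after 7 days of culture at 1% oxygen with 1700 U/ml of human interleukin 2 (IL-2). It held 3 mouse lines with 6 libraries each, 18 RNA-seq libraries in all, and the groups below had 3 biological replicates each.

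In the Hif1a line, Hif1a KO cells (genotype Ncr1 iCre with Hif1a fl/fl) were set against Hif1a flox cells (Hif1a fl/fl). The Ahr line had Ahr KO cells (Ncr1 iCre with Ahr fl/fl) and Ahr flox cells (Ahr fl/fl). In the Hif1a Ahr line, Hif1a Ahr KO cells carried Ncr1 iCre with both floxed genes, and Hif1a Ahr flox cells carried both floxed genes alone. Hif1a encodes the oxygen-regulated subunit of hypoxia-inducible factor, and Ahr encodes the aryl hydrocarbon receptor, a ligand-activated transcription factor. Ncr1 iCre expresses Cre recombinase from Ncr1, a gene of NK cells and some related innate lymphoid cells. Every group came from floxed mice cultured in hypoxia, every KO group carried Cre and no flox group did, so that Cre itself and the loss of the floxed gene cannot be told apart. The labels used here do not give age, sex, strain background or whether mice were pooled, and p-values measure the spread between the labelled replicates only.

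The pathway starts in the cytosol, where ATP citrate lyase (Acly) cleaves exported citrate into acetyl-CoA and acetyl-CoA synthetase (Acss2) makes it from acetate. Acetyl-CoA carboxylase (Acaca) and fatty acid synthase (Fasn) then build palmitate, which elongases (Elovl genes) lengthen and desaturases (Scd and Fads genes) furnish with double bonds. Desaturation needs molecular oxygen as well as the enzyme. Many of these genes are known targets of the sterol regulatory element binding proteins (SREBPs) and the liver X receptors (LXRs), and in NK cells SREBP activity is known to change with activation by cytokines.

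Library totals lay between 54420649 and 55732940 estimated counts, and 24103 to 25669 genes had a value above 0. NK cell marker genes summed to 21900 to 24300 CPM (counts scaled to the same library size) in Hif1a KO libraries, against 29700 to 34900 CPM in Hif1a flox libraries, and to 25700 to 26800 CPM in Hif1a Ahr KO libraries, against 28300 to 33400 CPM in Hif1a Ahr flox libraries. Abundant cytotoxic genes such as Gzmb make up most of that sum, and the 11 markers did not move one way: 3 were higher and 6 lower in Hif1a KO cells, 2 higher in Ahr KO cells, and 3 higher and 1 lower in Hif1a Ahr KO cells. Ncr1, whose locus drives Cre, averaged 229 CPM in Hif1a KO and 121 CPM in Hif1a flox libraries, 220.3 CPM in Ahr KO and 113 CPM in Ahr flox, and 249 CPM in Hif1a Ahr KO and 119 CPM in Hif1a Ahr flox. The 9 T cell markers summed to 84.7 to 123 CPM in Hif1a KO libraries, against 190 to 233 CPM in Hif1a flox libraries, and the 4 mast cell and basophil markers to 9.28 to 34.6 CPM, against 126 to 174 CPM. The 7 macrophage and monocyte markers summed to 0.853 to 1.83 CPM in Hif1a KO, against 4.18 to 9.9 CPM in Hif1a flox, and the 5 neutrophil markers to 0.0853 to 0.138 CPM, against 1.08 to 4.82 CPM. The 5 dendritic cell markers had higher sums, 317 to 386 CPM in Hif1a KO, against 185 to 228 CPM in Hif1a flox, and 258 to 302 CPM in Hif1a Ahr KO, against 137 to 217 CPM in Hif1a Ahr flox. Nearly all of that was Itgax, which NK cells also express. The 6 stroma and endothelium markers, mostly Pecam1, summed to 220 to 249 CPM in Hif1a KO, against 298 to 327 CPM in Hif1a flox. Sums in the Ahr line were 136 to 176 CPM in KO, against 199 to 206 CPM in flox, for T cell markers. Of those 9 genes 2 were called lower and none higher. Their median log2 difference was 0.715, so most of them pointed upward in KO. Mast cell and basophil markers summed to 170 to 214 CPM in KO, against 96.8 to 121 CPM in flox. Macrophage and monocyte sums were also higher in KO (6.8 to 10.4 CPM, flox 4.35 to 5.98 CPM). Stroma and endothelium sums were higher as well (286 to 342 CPM, flox 252 to 279 CPM). B cell sums were lower (0.232 to 0.451 CPM, flox 0.513 to 1.18 CPM). Neutrophil and dendritic cell sums overlapped. Hif1a Ahr KO sums were lower than flox sums for T cell (166 to 197 CPM, flox 214 to 247 CPM) and mast cell and basophil markers (37.2 to 69.9 CPM, flox 95.5 to 165 CPM). Again 2 T cell markers were called lower and none higher, with a median log2 difference of 0.265 over the 9. Neutrophil sums there were 0.157 to 0.359 CPM in KO and 0.91 to 4.99 CPM in flox. Macrophage and monocyte sums, and stroma and endothelium sums, overlapped between KO and flox in that line. All 5 adipocyte markers stayed untested for low counts, with sums of at most 0.0721 CPM in any library. In bulk RNA, fewer cells of a type and less RNA per cell cannot be told apart, and the part of other cell types in the results below was not tested. Hif1a transcripts were more abundant in KO cells, at 182, 147 and 210.5 CPM in Hif1a KO, against 64.9, 59.5 and 56.5 CPM in Hif1a flox (log2 difference 1.58, adjusted p = 6.5e-09). Ahr itself passed the test in none of the 3 lines, at 90.7, 88.6 and 97.0 CPM in Ahr KO, against 73.8, 77.0 and 78.5 CPM in Ahr flox. It had 42.8, 56.0 and 35.2 CPM in Hif1a KO, against 27.7, 39.3 and 27.7 CPM in Hif1a flox. Its adjusted p in that line ran from 0.0251 to 0.302 in edgeR repeats that each left out a library. In the Hif1a Ahr line Ahr had 57.05, 41.35 and 68.2 CPM in KO, against 78.05, 52.2 and 68.8 CPM in flox. Flox levels of Ahr were thus lowest in the Hif1a line. Values summed over a whole gene do not show which exons were read, so these levels do not check either deletion.

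Promoter sequences are shown for 3 members that stood for different outcomes in the Hif1a line: Fasn and Acly, which fell, and Elovl5, which rose. Each is the 250 bases before the RefSeq start on the GRCm38.p6 assembly, on the gene's own strand: Fasn at chr11:120824548-120824797 (minus strand), Acly at chr11:100528001-100528250 (minus strand) and Elovl5 at chr9:77917115-77917364 (plus strand). Capitals mark matches on either strand to ACGTG or GCGTG (cores of the hypoxia response element, of which GCGTG is also the core of the dioxin response element bound by the aryl hydrocarbon receptor), to CACGTG (the palindromic E-box, which contains ACGTG on both strands) or to CCAAT (the box of nuclear factor Y).
Fasn: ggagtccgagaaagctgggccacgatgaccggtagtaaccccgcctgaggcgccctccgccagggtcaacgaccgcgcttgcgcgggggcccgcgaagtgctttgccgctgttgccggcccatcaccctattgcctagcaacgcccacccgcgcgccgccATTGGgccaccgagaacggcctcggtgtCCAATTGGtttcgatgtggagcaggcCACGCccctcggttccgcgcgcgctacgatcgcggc
Acly: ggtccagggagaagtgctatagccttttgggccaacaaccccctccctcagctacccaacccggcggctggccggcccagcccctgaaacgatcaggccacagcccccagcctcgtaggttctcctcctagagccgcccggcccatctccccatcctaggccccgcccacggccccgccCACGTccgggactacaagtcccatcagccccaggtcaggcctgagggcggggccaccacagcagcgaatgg
Elovl5: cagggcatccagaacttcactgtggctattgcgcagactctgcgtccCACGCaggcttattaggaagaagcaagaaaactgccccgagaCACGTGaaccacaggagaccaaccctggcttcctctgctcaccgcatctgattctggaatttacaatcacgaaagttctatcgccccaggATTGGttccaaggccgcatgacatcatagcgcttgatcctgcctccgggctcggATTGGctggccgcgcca
Windows of this kind were in hand for 7 members, and Scd1, Scd2 and Fads1 had none. The Acaca window (chr11:84195188-84195437, plus strand) lay inside the annotated gene, which starts at 84129672. It was therefore not upstream of the first annotated start of Acaca. The Fads2 window (chr19:10101504-10101753, minus strand) lay almost wholly inside its annotated gene, which ends at 10101746. The Acss2 window (chr2:155517793-155518042, plus strand) ran past the annotated start at 155517948, and both Acss2 matches given below lie beyond that start. The Elovl6 window ended at 129532385, past its annotated start at 129532355. Of the 7, 3 held GCGTG (Acss2, Fasn, Elovl5), 2 held ACGTG (Acly, Elovl5), 1 held CACGTG (Elovl5) and 3 held CCAAT (Acss2, Fasn, Elovl5). Among all 32851 windows of the same length, 28.2% held GCGTG, 16.6% ACGTG, 6.02% CACGTG and 33.8% CCAAT. The sterol regulatory element, searched as TCACNCCAC on both strands, was in none of the 7 and in 1.05% of all windows. These matches describe letters only. Elovl5, which rose, shared GCGTG and CCAAT with Fasn and ACGTG with Acly, which both fell. Whether any site was bound, or bears on a change in level, was not tested.

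All 10 members differed between Hif1a KO and Hif1a flox cells, 8 lower and 2 higher in KO, at a Benjamini-Hochberg adjusted p under 0.05 in edgeR's quasi-likelihood test over all genes. Of all genes tested in that comparison, 35.4% were called, 17.8% lower and 17.6% higher. The members that fell were Scd1, Fads2, Acss2, Scd2, Fasn, Acly, Elovl6 and Acaca, from the largest log2 difference to the smallest, and the members that rose were Fads1 and Elovl5. The median log2 difference of the 10 members was -0.75, against -0.0099 over all genes tested. In the Ahr line 2 members were called, Acaca higher and Elovl5 lower in KO, beside 6.91% of all genes (2.13% higher and 4.78% lower). With the replicate number as a block, 3 members were higher (Acaca, Acss2, Fasn) and 2 lower (Elovl5, Fads1) in Ahr KO, beside 2421 of 16743 genes called. In the Hif1a Ahr line 7 members were called, 5 lower (Scd1, Fads2, Fasn, Acly, Elovl6) and 2 higher (Fads1, Elovl5), beside 31.3% of all genes (16.5% lower and 14.8% higher). The median over the 10 members was -0.36 there, against -0.017 over all genes. The lower count was 6 without Hif1a Ahr flox replicate 3, which stood apart as described below, 3 without flox replicate 2, and 3 when the 6 libraries of the line were fitted alone. The replicate block added Scd2 as lower and Acaca as higher in this line. Values of KO and flox libraries did not overlap for 7 members lower and 2 higher in the Hif1a line (25.1% and 24.8% of all genes), for 1 lower and 3 higher in the Ahr line (15.3% and 13.7%), and for 4 lower and 3 higher in the Hif1a Ahr line (19.7% and 17.6%).

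**Figure D1:**
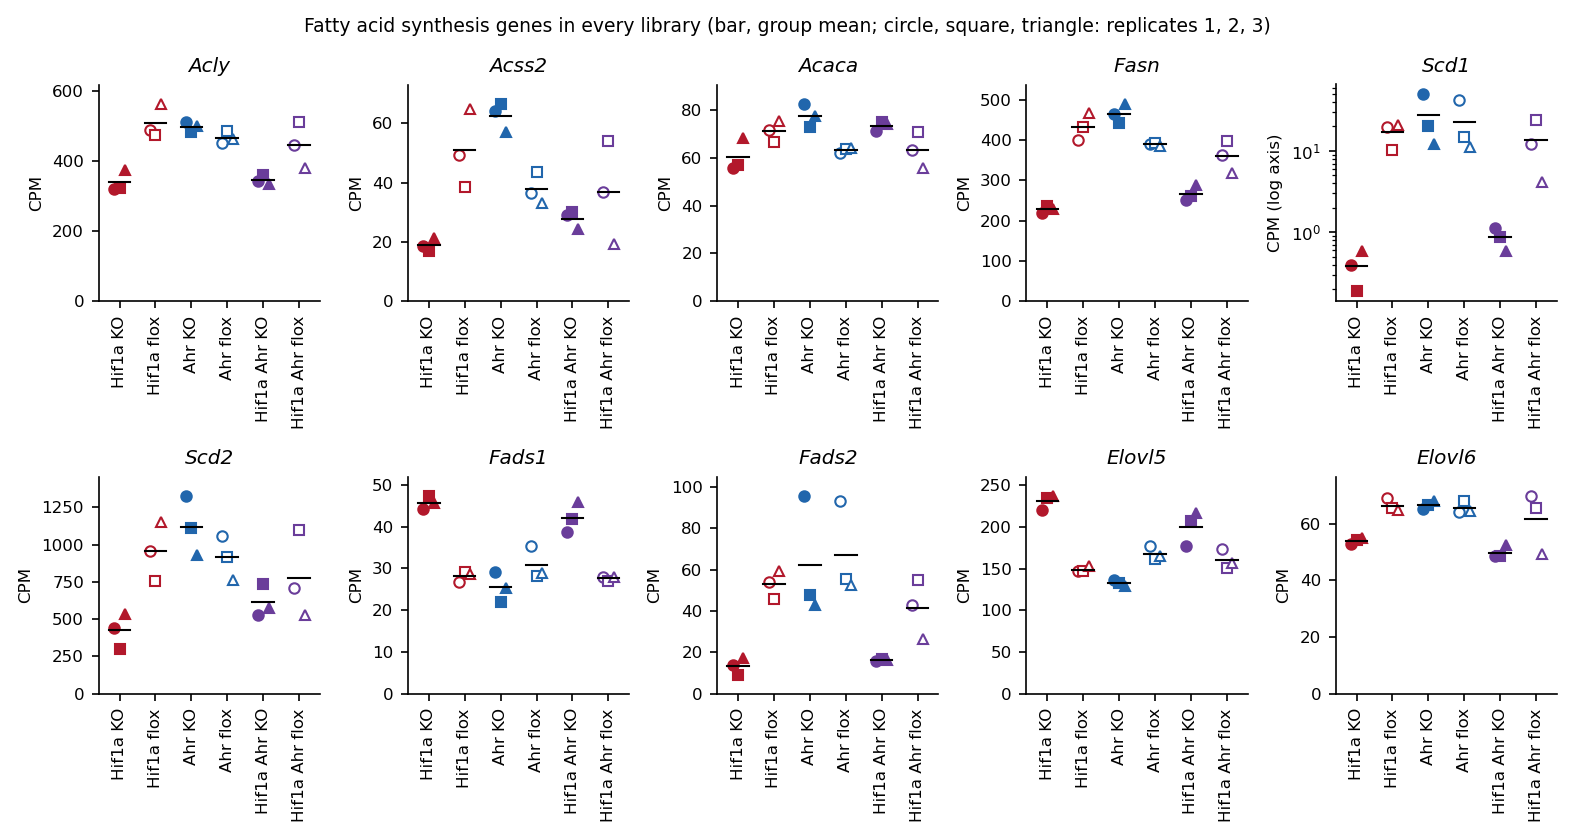
Level of each member in CPM in every library, with groups on the horizontal axis, KO left of flox in each line; filled symbols are KO, open symbols flox, and the short bar is the mean of 3 replicates. Fasn lies at 220 to 236 CPM in Hif1a KO, below the 400.2 to 468 CPM of Hif1a flox, whereas Elovl5 and Fads1 lie above their flox libraries in the Hif1a and Hif1a Ahr lines; the Scd1 axis is logarithmic.

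Both genes of acetyl-CoA supply fell in Hif1a KO cells. Acly had 322, 324 and 374 CPM in Hif1a KO libraries, against 489, 475 and 563 CPM in Hif1a flox libraries. All 3 KO values lay below all 3 flox values, and the log2 difference was -0.58 ± 0.09 (SE; adjusted p = 9.73e-05). Acss2 fell further, with 18.5, 16.8 and 21.2 CPM in Hif1a KO libraries, against 49.4, 38.6 and 64.7 CPM in Hif1a flox libraries. These groups did not overlap either, and the log2 difference was -1.43 ± 0.29 (adjusted p = 0.00154). Acly had 511, 484 and 500.1 CPM in Ahr KO libraries, against 452, 486 and 463 CPM in Ahr flox libraries, which overlapped (log2 difference 0.09 ± 0.09, adjusted p = 0.645). Acss2 had 64.2, 66.4 and 57.0 CPM in Ahr KO libraries, against 36.6, 43.5 and 33.0 CPM in Ahr flox libraries. Its KO values all lay above the flox values, and the log2 difference of 0.73 ± 0.28 missed the threshold (adjusted p = 0.151). Same-numbered Ahr libraries moved together, and with the replicate number as a block the Acss2 difference was called (0.74, adjusted p = 0.030), as it was without Hif1a Ahr flox replicate 3, which enters the shared estimate of spread. Acly was also lower in Hif1a Ahr KO libraries, at 342, 362 and 335 CPM, against 447, 513 and 381.5 CPM in Hif1a Ahr flox libraries. The log2 difference was -0.37 ± 0.09 (adjusted p = 0.00545, or 0.0554 with the 6 libraries of the line alone). Acss2 gave 28.9, 30.1 and 24.3 CPM in Hif1a Ahr KO libraries, against 36.9, 54.2 and 19.5 CPM in Hif1a Ahr flox libraries. The KO values sat inside the wide flox range, whose lowest value came from flox replicate 3. The log2 difference was -0.41 ± 0.28 (adjusted p = 0.309), and without that library it was -0.71 (adjusted p = 0.0185).

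Of the chain-building enzymes, Fasn changed most. Fasn, the multifunctional enzyme that assembles palmitate, had the smallest p-value of the 10 members in the Hif1a line. It had 220, 236.5 and 229.5 CPM in Hif1a KO libraries, against 400.2, 432 and 468 CPM in Hif1a flox libraries. The groups were far apart relative to their spread (log2 difference -0.92 ± 0.08, adjusted p = 1.21e-07), a level 1.90-fold lower in KO. Acaca, which makes the malonyl-CoA that Fasn uses, had 55.7, 56.9 and 68.4 CPM in Hif1a KO libraries, against 71.7, 66.7 and 75.3 CPM in Hif1a flox libraries. KO replicate 3 lay within the flox range, and the call was narrow (log2 difference -0.24 ± 0.09, adjusted p = 0.0367). In 5 of 18 repeats that each left out a library the Acaca call was lost: those without Hif1a KO replicate 1 or 2, Hif1a flox replicate 1 or 3, or Ahr flox replicate 3. It was also lost with the line fitted alone (adjusted p = 0.0504).

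The same pair of genes pointed upward in the Ahr line. Fasn had 464, 442 and 489 CPM in Ahr KO libraries, against 390.0, 392 and 386 CPM in Ahr flox libraries. No KO value fell into the tight flox range, the log2 difference was 0.26 ± 0.08 (adjusted p = 0.063), and under the replicate block it was 0.255 (adjusted p = 0.0485). It was also called without Hif1a Ahr flox replicate 2 or 3. Acaca had 82.4, 72.8 and 77.3 CPM in Ahr KO libraries, against 62.2, 63.5 and 64.2 CPM in Ahr flox libraries. It was called higher (log2 difference 0.29 ± 0.09, adjusted p = 0.0471), and the call was lost in 13 of 18 repeats that left out a library, where the adjusted p reached 0.169. It held without Hif1a KO replicate 2 or 3, Hif1a flox replicate 2, or Hif1a Ahr flox replicate 2 or 3. Fasn had 251, 261.5 and 289 CPM in Hif1a Ahr KO libraries, against 364, 397 and 318 CPM in Hif1a Ahr flox libraries. It was lower without overlap (log2 difference -0.43 ± 0.08, adjusted p = 0.000527). Acaca had 71.1, 74.9 and 73.9 CPM in Hif1a Ahr KO libraries, against 63.4, 70.7 and 55.6 CPM in Hif1a Ahr flox libraries. These values did not overlap and pointed upward (log2 difference 0.21 ± 0.09, adjusted p = 0.0668), with a call without Hif1a KO replicate 3 or Hif1a Ahr flox replicate 2. The replicate block also gave a call (0.219, adjusted p = 0.0254), although replicate numbers were not taken to pair libraries in that line. Of the 31-base words in Acaca transcripts, 56.8% also occur in Gm5182, a separate annotated gene whose mean lay between 0.37 and 0.62 CPM in the 6 groups, so the counts of Acaca could be split between them.

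The stearoyl-CoA desaturases were lower in Hif1a KO cells. Scd1 and Scd2 encode enzymes that turn saturated into monounsaturated fatty acids, and they differed widely in level and in size of change. Scd1 had 0.398, 0.188 and 0.583 CPM in Hif1a KO libraries, against 19.9, 10.1 and 21.1 CPM in Hif1a flox libraries. All KO libraries lay far below all flox libraries, 43.65-fold lower in the fitted means (log2 difference -5.45 ± 0.94, 95% interval -7.48 to -3.42, adjusted p = 0.000585). Scd2, the abundant form in these cells, had 439, 302 and 534 CPM in Hif1a KO libraries, against 955, 756 and 1152 CPM in Hif1a flox libraries. It was lower without overlap by a smaller factor, 2.25-fold (log2 difference -1.17 ± 0.27, adjusted p = 0.00403). The smallest Scd1 estimate in any library was 11 counts, and 5.26% of the 31-base words of Scd1 transcripts also occur in Scd2 and 5.92% in Scd3, so part of a low Scd1 value could come from reads of those genes.

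In the Ahr line the spread between replicates of Scd1 was large in both groups. Scd1 had 49.5, 20.4 and 12.2 CPM in Ahr KO libraries, against 42.1, 14.6 and 11.0 CPM in Ahr flox libraries. Replicate 1 was highest in each, and the log2 difference of 0.28 ± 0.66 did not pass (95% interval -1.14 to 1.70, adjusted p = 0.875). Under the replicate block it was 0.289 (adjusted p = 0.425). Scd2 had 1323, 1111 and 929.9 CPM in Ahr KO libraries, against 1061, 919 and 765 CPM in Ahr flox libraries, with overlap (log2 difference 0.29 ± 0.27, adjusted p = 0.615). Each Scd2 KO value lay above the flox value of the same number, and under the replicate block the difference was 0.291 (adjusted p = 0.0845). Scd1 was again lower in Hif1a Ahr KO libraries, at 1.13, 0.869 and 0.595 CPM, against 12.1, 24.0 and 4.21 CPM in Hif1a Ahr flox libraries. The groups did not overlap (log2 difference -3.96 ± 0.84, adjusted p = 0.00315), and the value was -4.38 without flox replicate 3. Scd2 had 525.5, 735 and 575 CPM in Hif1a Ahr KO libraries, against 707, 1095 and 528 CPM in Hif1a Ahr flox libraries. These overlapped, and the difference of -0.35 ± 0.27 was not called (adjusted p = 0.37). Without flox replicate 3 it was -0.56 (adjusted p = 0.138). Under the replicate block it was called (-0.295, adjusted p = 0.0406), although replicate numbers were not taken to pair libraries in this line.

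The genes for polyunsaturated chains changed in opposite directions. Fads2 performs the opening desaturation of the essential dietary fatty acids, Elovl5 lengthens its products, and Fads1 desaturates the lengthened chains. Fads2 had 13.7, 9.06 and 17.1 CPM in Hif1a KO libraries, against 54.0, 45.7 and 59.5 CPM in Hif1a flox libraries. It was lower without overlap, by 4.00-fold (log2 difference -2.00 ± 0.36, adjusted p = 0.000842). Elovl5 moved the other way, with 220.3, 235 and 236.5 CPM in Hif1a KO libraries, against 147, 147 and 153 CPM in Hif1a flox libraries (log2 difference 0.63 ± 0.07, adjusted p = 2.72e-06). Fads1 also rose, to 44.3, 47.3 and 45.6 CPM in Hif1a KO libraries, against 26.7, 29.3 and 28.6 CPM in Hif1a flox libraries (log2 difference 0.70 ± 0.10, adjusted p = 2.17e-05). The replicates of Elovl5 and Fads1 were tight, and every KO value exceeded every flox value. Fads1 and Fads2 are neighbours among the tested genes of chromosome 19, and Fads3, on the other side of Fads2, was lower in Hif1a KO cells (log2 difference -1.57, adjusted p = 0.000582).

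The 3 genes had the same directions in the Hif1a Ahr line. Fads2 had 15.7, 16.7 and 16.1 CPM in Hif1a Ahr KO libraries, against 43.0, 55.2 and 26.3 CPM in Hif1a Ahr flox libraries (log2 difference -1.36 ± 0.36, adjusted p = 0.0111). Elovl5 had 177, 207 and 217 CPM in Hif1a Ahr KO libraries, against 173, 151 and 157 CPM in Hif1a Ahr flox libraries (log2 difference 0.32 ± 0.07, adjusted p = 0.0024). Fads1 had 38.8, 41.8 and 46.0 CPM in Hif1a Ahr KO libraries, against 28.0, 27.1 and 28.1 CPM in Hif1a Ahr flox libraries (log2 difference 0.61 ± 0.10, adjusted p = 0.000104). No KO range touched its flox range, although Elovl5 came close, and the Fads2 call was lost without flox replicate 2 (adjusted p = 0.0508). Elovl5 fell in the Ahr line, with 136, 132.5 and 129 CPM in Ahr KO libraries, against 176.5, 162 and 165 CPM in Ahr flox libraries. The groups did not overlap (log2 difference -0.34 ± 0.07, adjusted p = 0.00738). Fads1 had 29.2, 22.0 and 25.4 CPM in Ahr KO libraries, against 35.5, 28.3 and 29.0 CPM in Ahr flox libraries. KO replicate 1 overlapped the flox range (log2 difference -0.28 ± 0.10, adjusted p = 0.0964), and the difference was called under the replicate block (-0.28, adjusted p = 0.00737) and without KO replicate 1. Fads2 in the Ahr line had 95.4, 47.7 and 43.0 CPM in KO libraries, against 92.9, 55.5 and 52.5 CPM in flox libraries. Replicate 1 was again the highest in both groups, and the difference of -0.11 ± 0.34 did not pass (95% interval -0.85 to 0.63, adjusted p = 0.905). Under the replicate block it was -0.155 (adjusted p = 0.655).

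Elovl6, which extends palmitate to stearate, showed small changes. It had 52.7, 54.2 and 54.9 CPM in Hif1a KO libraries, against 68.9, 65.3 and 64.7 CPM in Hif1a flox libraries, lower without overlap (log2 difference -0.30 ± 0.09, adjusted p = 0.0122; 0.0509 without Hif1a flox replicate 1). In the Ahr line it had 65.0, 66.7 and 67.9 CPM in KO libraries, against 64.1, 68.1 and 64.6 CPM in flox libraries, and the 95% interval of the log2 difference, -0.16 to 0.20, included 0 (adjusted p = 0.932). In the third line it had 48.4, 48.4 and 52.3 CPM in Hif1a Ahr KO libraries, against 69.6, 65.5 and 49.4 CPM in Hif1a Ahr flox libraries. Flox replicate 3 lay within the KO range while the other 2 lay above it. The gene was called lower (log2 difference -0.31 ± 0.09, adjusted p = 0.0122), with -0.44 (adjusted p = 1.67e-05) without flox replicate 3 and no call without flox replicate 1, without flox replicate 2 or with the line fitted alone (adjusted p = 0.12).

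**Figure D2:**
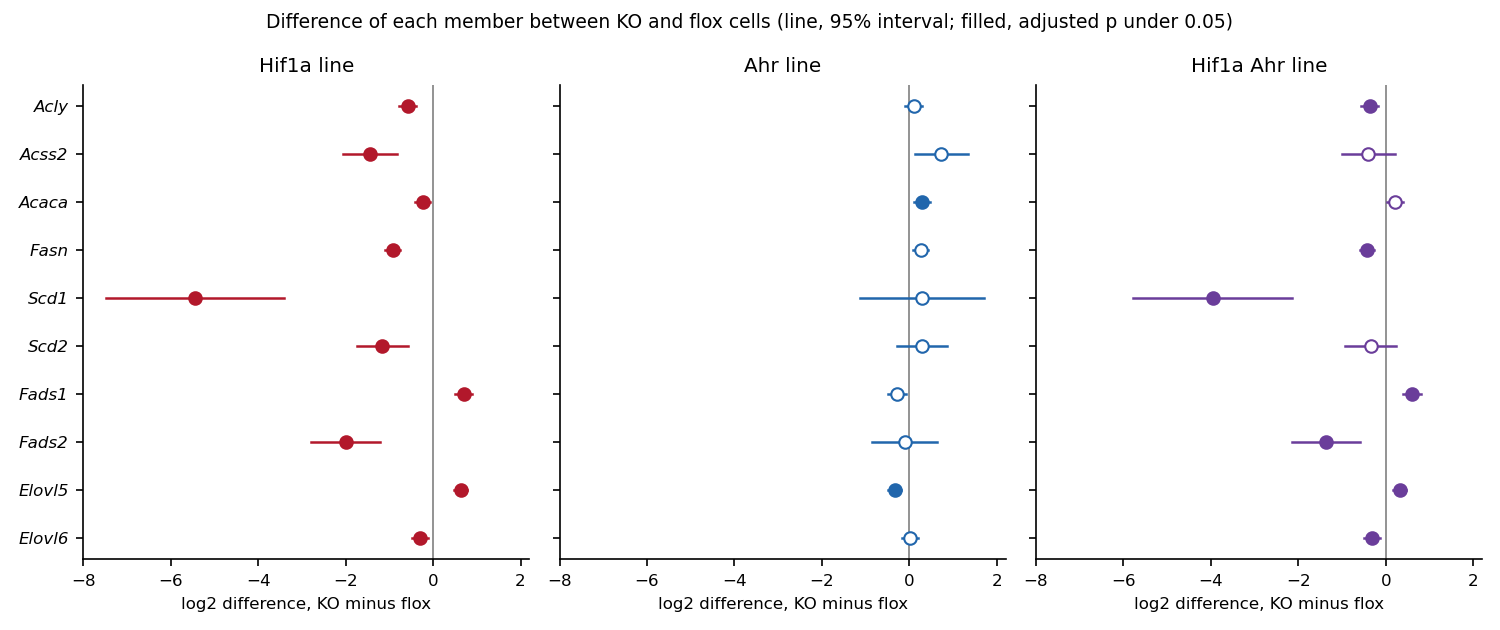
Log2 difference, KO minus flox, of each member (rows) in the 3 lines (panels), with 95% intervals as lines; filled points have an adjusted p under 0.05. In the Hif1a panel Scd1 (-5.45) and Fads2 (-2.00) lie furthest left and Fads1 (0.70) and Elovl5 (0.63) lie right of 0; in the Ahr panel the filled points are Acaca (0.29) and Elovl5 (-0.34).

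The members' effects differed between lines when the difference itself was tested. Relative to the Ahr effect, the Hif1a effect was lower for 7 members and higher for 2, Elovl5 and Fads1, beside 15.7% of all genes called lower and 16.6% called higher (32.4% in all). Elovl6 was the exception (-0.32 ± 0.12, adjusted p = 0.0556), and it was called without Hif1a Ahr flox replicate 1 or 3. The point estimates of 9 of 10 members, all but Fads2, had opposite signs in the Hif1a and Ahr lines, against 62.7% of all genes tested. For Elovl5 the 2 effects were 0.97 ± 0.10 apart (adjusted p = 1.67e-06), and for Fasn -1.18 ± 0.11 (adjusted p = 6.82e-07). Relative to the Hif1a effect, the Hif1a Ahr effect was less negative for Fasn by 0.49 ± 0.11 (adjusted p = 0.0128), and higher for Acaca by 0.45 ± 0.12 (adjusted p = 0.026), beside 9.65% of all genes called (4.53% higher and 5.12% lower). The other 8 members did not pass there, with intervals as wide as -1.36 to 4.35 for Scd1, and the Acaca call was lost in 8 of 18 repeats that left out a library. Those repeats left out Hif1a KO replicate 1 or 2, Hif1a flox replicate 1 or 3, Hif1a Ahr KO replicate 2 or 3, or Hif1a Ahr flox replicate 1 or 3. The replicate block also called Acss2, Scd1 and Scd2 higher in this contrast (adjusted p = 0.0219, 0.0404 and 0.00129). Replicate numbers were not taken to pair libraries in the Hif1a Ahr line. Without Hif1a Ahr flox replicate 2, 4 members were called higher there, Acss2 and Scd2 being added, and Elovl5 lower; Elovl5 was also called without Hif1a Ahr KO replicate 3. Relative to the Ahr effect, the Hif1a Ahr effect was lower for Acly, Fasn and Scd1 and higher for Elovl5 and Fads1, beside 16.4% of all genes called (7.78% lower and 8.6% higher). Without Hif1a Ahr flox replicate 3 the lower count was 5, Acss2 and Elovl6 being added. With the replicate block it was 6, Acss2, Scd2 and Fads2 being added. Acly missed the threshold in 4 repeats, those leaving out replicate 1 or 3 of Ahr flox, replicate 3 of Hif1a Ahr KO or replicate 2 of Hif1a Ahr flox. These contrasts share flox and KO libraries with one another. Among the 3 flox groups no member differed, in edgeR's test or in DESeq2; 1 had an unadjusted p under 0.05 (Fasn, 0.0119), and 0.245% of all genes were called.

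Relative abundance of related enzymes shifted within the family. Fads1 over Fads2, as a ratio of CPM values, was 3.24, 5.22 and 2.67 in Hif1a KO libraries, against 0.494, 0.640 and 0.481 in Hif1a flox libraries. Fads1 was thus the gene with the higher CPM in every KO library and the gene with the lower CPM in every flox library of that line. The ratio was 2.48, 2.50 and 2.87 in Hif1a Ahr KO libraries, against 0.652, 0.490 and 1.07 in Hif1a Ahr flox libraries, and 0.306, 0.462 and 0.590 in Ahr KO libraries, against 0.382, 0.510 and 0.551 in Ahr flox libraries. Elovl5 over Elovl6 was 4.18, 4.34 and 4.31 in Hif1a KO libraries, against 2.13, 2.25 and 2.36 in Hif1a flox libraries, and it was lower in Ahr KO (2.09, 1.99, 1.90) than in Ahr flox (2.75, 2.38, 2.55). Scd1 over Scd2 averaged 0.000874 ± 0.000238 in Hif1a KO and 0.0175 ± 0.00379 in Hif1a flox (SD, n = 3 each). In the 7 of 9 comparisons of these ratios without overlap the exact permutation test, two-sided, gave p = 0.1, the smallest that 3 against 3 libraries allow (0.129 after Benjamini-Hochberg adjustment over the 9).

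**Figure D3:**
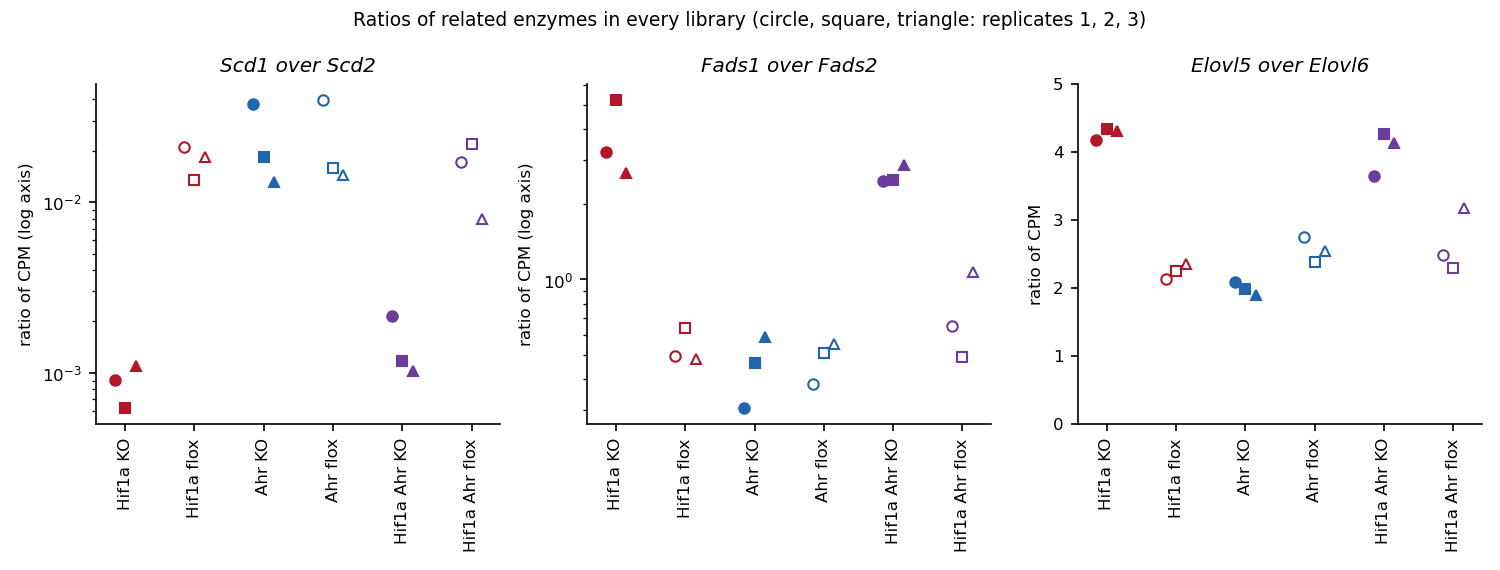
Ratio of CPM values of Scd1 over Scd2, Fads1 over Fads2 (both on logarithmic axes) and Elovl5 over Elovl6 in every library; filled symbols are KO, open symbols flox, KO left of flox. The Fads1 over Fads2 ratio lies between 2.67 and 5.22 in Hif1a KO and between 0.481 and 0.640 in Hif1a flox, while both Ahr groups overlap.

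The order of the members by level also differed. On CPM per kilobase of the longest coding transcript, Hif1a flox cells ran from Scd2 (175 ± 36) through Acly (115 ± 11), Elovl5 (53.5 ± 1.2), Fasn (43.1 ± 3.4), Acss2 (17.4 ± 4.5), Fads2 (16.8 ± 2.2), Elovl6 (11.1 ± 0.38), Fads1 (8.14 ± 0.39) and Acaca (7.49 ± 0.45) to Scd1 (3.52 ± 1.2; SD, n = 3). Neighbours whose libraries overlapped there were Acss2 with Fads2 and Fads1 with Acaca. In Hif1a KO cells the same scale ran from Elovl5 (82.9 ± 3.2), Scd2 (77.9 ± 21) and Acly (76.8 ± 6.6), which overlapped, through Fasn (22.8 ± 0.82), Fads1 (13.2 ± 0.43), Elovl6 (9.06 ± 0.19), Acss2 (6.43 ± 0.76), Acaca (6.34 ± 0.74) and Fads2 (4.21 ± 1.3) to Scd1 (0.0806 ± 0.041). Libraries of Acss2 and Acaca also overlapped in Hif1a KO cells. Fads2 stood above Fads1 in flox cells and below it in KO cells, and Elovl5 stood below Scd2 and Acly in flox cells and overlapped them in KO cells. Summed over the 10 members, CPM came to 1417 ± 152 in Hif1a KO and 2332 ± 295 in Hif1a flox, to 2539 ± 253 in Ahr KO and 2226 ± 190 in Ahr flox, and to 1635 ± 139 in Hif1a Ahr KO and 1988 ± 444 in Hif1a Ahr flox (SD, n = 3 each). Scd2 was the largest part of each sum, with means of 425 CPM in Hif1a KO and 954 CPM in Hif1a flox, so the sums follow that gene most.

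Replicates within a group also differed in a shared way. In 5 of 6 groups, all but Hif1a Ahr KO, the 3 libraries had the same order for Scd1, Scd2 and Fads2, a pattern picked out after the values were seen. In the Ahr line replicate 1 was highest for all 3 genes in KO and in flox cells, and in the Hif1a line replicate 3 was highest in both. Hif1a Ahr flox replicate 3 had the lowest value of the 9 flox libraries for 8 of 10 members, all but Elovl5 and Fads1. How often it was lowest over all genes was not counted. Its Elovl5 (157 CPM) and Fads1 (28.1 CPM) lay within the range of the other flox libraries (147 to 176.5 and 26.7 to 35.5 CPM). Its Scd1 level of 4.21 CPM compared with a next lowest flox value of 10.1 CPM, and its Fads2 level of 26.3 CPM with 43.0 CPM. Slc16a3, a lactate transporter gene known to be induced in hypoxia, had 365 CPM in that library, beside 387 and 387.5 CPM in the other 2 of its group. This is 1 gene only. Low values in that library were not confined to the members. Targets of SREBP2 in the sterol pathway summed to 2936 CPM there, the lowest sum of the 9 flox libraries, beside 3565 and 4883 CPM in the other 2 of its group. Fatty acid oxidation genes were not low there, at 1142 CPM, beside 1103 and 1117 CPM. What set the library apart was not tested.

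**Figure D4:**
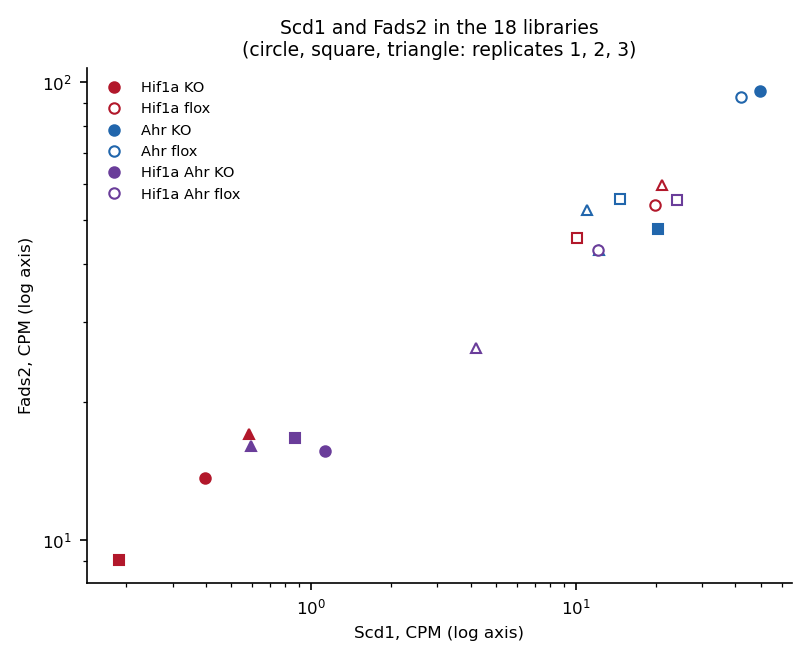
Scd1 against Fads2, both in CPM on logarithmic axes, in the 18 libraries; filled symbols are KO and open symbols flox, and shapes mark replicates 1, 2 and 3. The 6 Hif1a KO and Hif1a Ahr KO libraries lie at 0.188 to 1.13 CPM of Scd1, and Hif1a Ahr flox replicate 3, at 4.21 CPM, lies between them and the other flox libraries.

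Profiles were compared over the 9986 genes that averaged 5 CPM or more. Among those whose profile over the 18 libraries came closest to Fasn, by root mean square difference of centred log2 CPM, were Slc25a1 (0.0955), Pear1 (0.104), Pcyt2 (0.106) and Gmppa (0.112). Slc25a1 encodes the mitochondrial citrate carrier and Pcyt2 an enzyme of phosphatidylethanolamine synthesis. For Scd1 the closest were Tmem119 (0.717), Unc13a (0.772), Vldlr (0.783), Smtnl2 (0.784) and Thsd1 (0.791), and Vldlr encodes a lipoprotein receptor. The SD of the profile itself was 2.51 on the log2 scale for Scd1 and 0.388 for Fasn.

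Other genes of lipid metabolism gave the setting. All 13 tested targets of SREBP2 in the sterol pathway were lower in Hif1a KO cells (median log2 difference -1.23), for example Lss (-1.31, adjusted p = 6.08e-07), which encodes lanosterol synthase. Of the same 13, none was called in the Ahr line (median 0.23; no gene of this list had a negative estimate there) and 10 were lower in Hif1a Ahr KO cells (median -0.67). Among 15 tested SREBP and LXR regulators, 7 were lower and 3 higher in Hif1a KO cells, with Insig1, which retains SREBPs in the endoplasmic reticulum, at -1.14 (adjusted p = 5.45e-08) and Srebf1, which encodes SREBP1, at -0.74 (adjusted p = 6.2e-07). Srebf1 had 87.5, 83.8 and 85.9 CPM in Hif1a KO libraries, against 146, 137 and 146 CPM in Hif1a flox libraries, with no overlap. In Hif1a Ahr KO cells Insig1 was lower by a log2 difference of -0.77 and Srebf1 by -0.37, and in the Ahr line neither passed (0.12 and 0.14). Of the 15 regulators, 4 were lower and 5 higher in Hif1a Ahr KO cells and none was called in the Ahr line.

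Lists nearer to the members were mixed. They are read against all genes tested, of which 17.6% were higher and 17.8% lower in Hif1a KO, 2.13% and 4.78% in Ahr KO, and 14.8% and 16.5% in Hif1a Ahr KO cells. Other enzymes of fatty acid synthesis and elongation had 3 of 18 genes higher and 3 lower in Hif1a KO cells, none called in the Ahr line, and 5 higher and 2 lower in Hif1a Ahr KO cells; the share in Hif1a KO cells was near that of all genes. Elovl7, another elongase, rose in Hif1a KO cells (log2 difference 1.35, adjusted p = 1.64e-06) and again in Hif1a Ahr KO cells (2.16, with an adjusted p of 5.57e-09), as did Acss1, the mitochondrial acetyl-CoA synthetase (1.13, adjusted p = 5.45e-08, and 1.12, adjusted p = 5.79e-08). Acss1 and Acss2, which make acetyl-CoA from acetate in mitochondria and in the cytosol and nucleus, thus changed in opposite directions in Hif1a KO cells. Supply of citrate, acetyl-CoA and NADPH had 3 of 13 genes higher and 6 lower in Hif1a KO cells, Slc25a1 among the lower (-0.95, adjusted p = 5.03e-08), none called in the Ahr line, and 2 higher and 5 lower in Hif1a Ahr KO cells. For the lists with no call in the Ahr line by edgeR, an unadjusted p under 0.05 was reached by 0 of 13 SREBP2 targets, 1 of 18 other synthesis enzymes, 4 of 15 regulators, 1 of 13 supply genes and 2 of 10 uptake and droplet genes, and DESeq2 called 2 of the regulators and none of the others.

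Fatty acid activation had 2 of 10 genes higher and 4 lower in Hif1a KO cells, 1 and 1 in the Ahr line, and 1 and 4 in Hif1a Ahr KO cells. Slc27a1, a fatty acid transport protein with acyl-CoA synthetase activity, was lower in Hif1a KO (-2.98, adjusted p = 1.3e-08), higher in Ahr KO (0.87, adjusted p = 0.00731) and lower in Hif1a Ahr KO (-1.76, adjusted p = 3e-06). In glycerolipid synthesis 7 of 13 genes were lower and none higher in Hif1a KO cells, 1 was higher in the Ahr line, and 3 were higher and 4 lower in Hif1a Ahr KO cells. Of 10 genes of lipid uptake and lipid droplets, 5 were lower and 1 higher in Hif1a KO cells, none was called in the Ahr line and 4 were lower in Hif1a Ahr KO cells, with Vldlr at -4.23 (adjusted p = 5.58e-06) and Hilpda, an inhibitor of triglyceride breakdown known to be induced in hypoxia, at -2.24 (adjusted p = 6.66e-08) in Hif1a KO cells. The 7 LXR target genes had 3 higher and 2 lower in Hif1a KO cells, 1 lower in the Ahr line, and 2 higher and 1 lower in Hif1a Ahr KO cells. Fatty acid oxidation had 7 of 18 genes higher and none lower in Hif1a KO cells (median 0.18), led by Cpt1a, the mitochondrial carnitine acyltransferase (0.75, adjusted p = 6.75e-06), 1 lower in the Ahr line, and 2 higher and 4 lower in Hif1a Ahr KO cells.

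**Figure D5:**
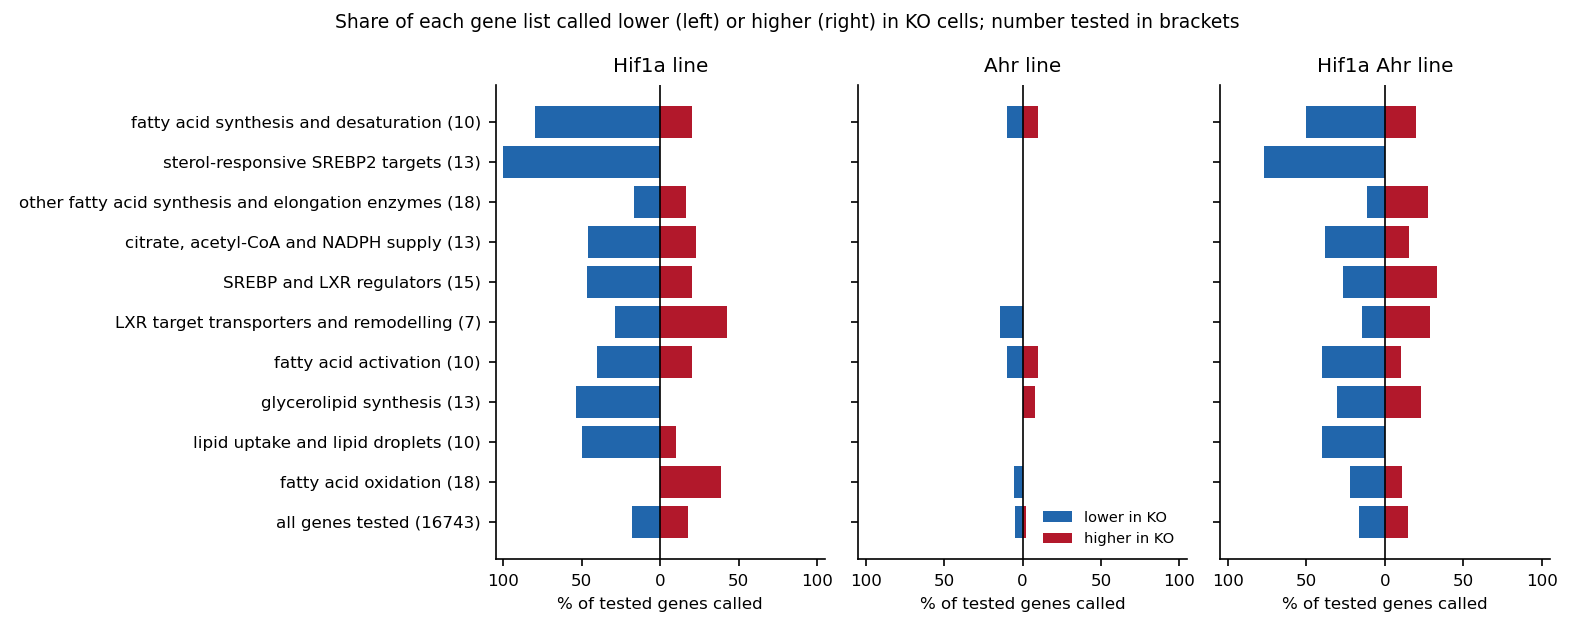
Percentage of the tested genes of each list called lower (bars to the left) or higher (bars to the right) in KO than in flox cells, for the 3 lines; the number tested stands in brackets. The 10 fatty acid synthesis and desaturation genes and the 13 SREBP2 targets are mostly lower in the Hif1a panel, while all genes tested show 17.8% lower and 17.6% higher there.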

How the data were processed

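RNA-seq counts of 18 libraries (6 groups, 3 replicates each) were analysed. The deposited counts are estimated counts per gene, not normalised; per the submitters' processing notes the build was GRCm39 and the tools were edgeR 3.17, kallisto 0.4.6 and Trim Galore 0.6.4, while settings and transcript annotation are not given in the sources used here. Per the labels' protocols, libraries were strand-specific mRNA libraries for DNBSEQ sequencing. The deposited log2 CPM values of the authors match log2 CPM computed here from the counts (prior count 2) to within 5.3e-15, and served for that check only. Of the count values above 0, 65.5% to 67.8% were not whole.

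Counts were rounded to whole numbers and tested with edgeR 4.0.16 (R 4.3.3): TMM scaling (factors 0.941 to 1.06), filterByExpr by group, a robust quasi-likelihood fit of all 18 libraries with 1 mean per group (12 residual degrees of freedom), and Benjamini-Hochberg adjustment over 16743 genes, called at an adjusted p under 0.05. CPM values are TMM-scaled. The SE of a log2 difference was derived from its F statistic. The script was tested on simulated data. Members and lists were chosen with earlier results of these data known. Beyond the members, Hif1a, Ahr and up to 3 called genes per list and comparison, by adjusted p, were named, plus the 5 genes closest to Scd1 and to Fasn; some genes that this rule names are not reported here.

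Alternatives were DESeq2 1.42.0, its size factors, no filter, unrounded counts, each line alone, a replicate block and leaving out each library. Same-numbered KO and flox libraries deviated together in the Hif1a line (r = 0.31, 0.53 and 0.30 over genes of at least 5 CPM) and the Ahr line (0.36, 0.33 and 0.53), and in the Hif1a Ahr line the first pair fell short of 0.1 (0.067, 0.45 and 0.27), so numbers were taken to pair libraries in the Hif1a and Ahr lines only. Replicates differed by far more than counting noise (chi-square per degree of freedom 14.5 to 59.9). Symbols matched 52029 of 56953 identifiers and 199 of 200 listed genes. Promoters came from RefSeq (GRCm38.p6); transcript lengths and shared 31-base words from GENCODE transcripts of GRCm38, not the build of the counts. Cells with Cre alone and cells in normoxia were not analysed here.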

Additional observations from a re-analysis of the deposited data

Results flagged for a closer look

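The following members had KO against flox differences that themselves differed between lines, by edgeR's quasi-likelihood test of the difference with Benjamini-Hochberg adjustment over all genes. Between the Hif1a line and the Ahr line, the difference of effects on the log2 scale was -0.68 for Acly (adjusted p = 0.000676), -2.16 for Acss2 (0.000993), -0.53 for Acaca (0.00247), -1.18 for Fasn (6.82e-07), -5.73 for Scd1 (0.00207), -1.46 for Scd2 (0.00926) and -1.89 for Fads2 (0.0105). It was 0.97 for Elovl5 (1.67e-06) and 0.98 for Fads1 (3.12e-05). In the Hif1a line the point estimate of each of these 9 members had the opposite sign to that in the Ahr line, except Fads2, which was negative in both. Of these members only Acaca and Elovl5 were called in the Ahr line itself. Listing members by a difference of effects also favours opposite signs, which 62.7% of all genes tested had. Between the Hif1a Ahr line and the Hif1a line, the difference was 0.45 for Acaca (0.026) and 0.49 for Fasn (0.0128). Between the Hif1a Ahr line and the Ahr line, it was -0.46 for Acly (0.0215), -0.68 for Fasn (0.000426), -4.23 for Scd1 (0.0168), 0.66 for Elovl5 (0.000212) and 0.88 for Fads1 (0.000212). The 3 sets of contrasts share libraries, so they are not independent of one another.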

How the results depend on the processing

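Of 60 member results per setting, DESeq2's size factors, unrounded counts and no filter kept the direction and call of all 60; DESeq2 kept 57 and added 3 calls. The replicate block kept 48, added 11 calls and turned the sign of 1, Elovl6 in the contrast of the Hif1a Ahr with the Hif1a effect (0.00452, against -0.00856). Leaving out libraries kept 1018 of 1080 values, lost 34 calls, added 15 and turned 13 signs, all of uncalled values: the range was -0.144 to 0.0892 for that Elovl6 contrast, -0.469 to 1.09 for Scd1 and -0.564 to 0.199 for Fads2 in the Ahr line, and -0.162 to 0.00928 for Acaca in the contrast of the Hif1a Ahr with the Ahr effect. In the Ahr line, members called higher numbered 2 with DESeq2, 3 with the block and 3 with the line alone (0 to 3 leaving out libraries), and members called lower 2 with the block (1 to 2). All genes called there came to 2421 with the block (467 to 1379 leaving out libraries), of which 42.7% were higher with the block and 41.5% with the line alone (20.8% to 34.6% leaving out libraries). In the Hif1a Ahr line alone, 3104 genes and 3 lower members were called (3 to 6 members leaving out libraries). The calls lost with a line alone were Acaca in the Hif1a line (adjusted p = 0.0504) and Acly (0.0554) and Elovl6 (0.12) in the Hif1a Ahr line. For the contrast of the Hif1a Ahr with the Hif1a effect, 3158 genes and 5 higher members were called with the block, Acss2 (1.1, adjusted p = 0.0219), Scd1 (1.65, 0.0404) and Scd2 (0.889, 0.00129) being added (751 to 2396 genes and 1 to 4 members leaving out libraries) and 1 lower member with DESeq2 (0 to 1). For that of the Hif1a Ahr with the Ahr effect, 6 lower members were called with the block (2 to 5). Between flox groups, 64 genes differed with no filter and 112 with DESeq2 (27 to 45 leaving out libraries), with no block value since numbers are nested in lines. Where a setting moved a count, the cause was not tested. Scd1 in KO libraries, from 11 counts, is limited by depth.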

Other observations

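The 10 tested genes nearest to each member, 5 on each side by their order in the GRCm38 annotation, were looked up, and those of Elovl5 on chromosome 9 are given because they had the most calls higher in the Hif1a line, a choice made after the values were seen. Among the 10 genes nearest to each of the other members, 0 to 4 were higher and 0 to 3 lower in Hif1a KO cells. Near Elovl5, 5 were higher in Hif1a KO than in Hif1a flox cells: Lysmd2 (log2 difference 0.35, adjusted p = 0.0203), Lrrc1 (0.74, adjusted p = 1.51e-07), Gm19569 (0.81, adjusted p = 0.00971), Gclc (0.45, adjusted p = 0.000561), which encodes the catalytic subunit of glutamate-cysteine ligase, and Cgas (0.47, adjusted p = 0.00136), which encodes a sensor of cytosolic DNA. Ddx43 was lower (-0.56, adjusted p = 0.0238), and the nearest tested gene on the side of Elovl5 away from Gclc, Fbxo9, was not called (0.08, adjusted p = 0.407). In Hif1a Ahr KO cells 4 of the 10 were higher and 1 lower, with Gclc not called (0.13, adjusted p = 0.287). Of the same 10 genes 1 was called in the Ahr line, where Elovl5 was lower in KO: Lysmd2, which was higher (0.51, adjusted p = 0.0087). Over all genes tested in the Hif1a line, 17.6% were called higher and 17.8% lower.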
